A study of Homo sapiens with 24 samples.

Results

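The neutrophil-attracting chemokines and the growth factors of granulocytes and macrophages were followed as a group of 10 genes: CXCL1, CXCL2, CXCL3, CXCL8, IL6, LIF, IL1A, IL1B, CSF2 and CSF3. Members were found in the deposited tables by their GENCODE 29 symbols. Each of the 10 symbols matched 1 of 37247 gene ids, and all 10 had enough counts to be among the 14986 genes tested. The cells were MDA-MB-231, a human breast cancer cell line. The WT line overexpressed wild-type MRTF-A, and the dSAP and dSRF lines overexpressed mutant forms whose names the labels do not explain. These 3 lines were set against a Control line. MRTF-A, encoded by MRTFA, is a coactivator of the transcription factor SRF that responds to actin. Doxycycline at 1 ug/ml was given to all 4 lines, Control included, over 72 h. Cells lay on matrigel, a gel of basement membrane proteins (3D), or in plates (2D). Every combination of line and culture has 3 libraries, which makes 24. The labels do not give the promoter that drives the inserted genes beyond its doxycycline induction, nor whether a line is 1 clone. They also do not say whether replicates were separate cultures, so p-values measure the spread between these libraries.

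CXCL1, CXCL2, CXCL3 and CXCL8 are small secreted proteins that bind the receptors CXCR1 and CXCR2 on neutrophils and draw these cells into inflamed tissue and into tumours. IL1A and IL1B, the interleukin-1 cytokines, act through IL1R1 and switch on the transcription factors NF-kB and AP-1, which in turn drive chemokine, IL6 and colony-stimulating factor genes in many cell types. IL6 and LIF signal through receptors that share IL6ST and activate STAT3. CSF2 (GM-CSF) and CSF3 (G-CSF) stimulate the growth and survival of myeloid cells. Basal-like breast cancer lines such as MDA-MB-231 are known to secrete several of these proteins without added stimulus. Most of the messages are short-lived, because AU-rich elements in their 3′ ends bind RNA decay factors.

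The induced gene and the identity of the libraries were checked first. For 16 of the 24 libraries the genotype in the labels is at odds with the title, and groups follow the titles. MRTFA stood at 664 to 10716 CPM (counts scaled to library size, TMM-normalised) in the libraries titled WT, dSAP or dSRF and at 28.8 to 39.1 CPM in Control. Over both cultures it ran from 4444 to 4878 CPM in WT and from 8765 to 10716 CPM in dSAP. In 2D dSRF it ran from 3170 to 3361 CPM. The library labelled 3D dSRF 1 stood apart before any cytokine was considered. It held 664 CPM of MRTFA, against 4840.3 and 4857 CPM in the libraries 3D dSRF 2 and 3. Its log2 CPM correlated across genes at 0.971 with the mean of 2D dSRF and at 0.952 with the other 3D dSRF libraries. It was also the deepest, with 23023415 counts in a range that began at 13968829. Results of 3D dSRF are therefore given with and without it. Because all libraries share 1 estimate of spread, leaving it out also narrowed the errors of the other comparisons, and members over Control whose call changed without it are named with that value. Of 5 markers known to be absent or low in the line, the receptor genes ESR1 and PGR reached at most 0.230 and 0.0186 TPM. All 5 summed to 153 to 320.5 TPM in 3D dSRF, 206 to 228 in 2D dSRF and 73.9 to 101 in the other 6 groups. The epithelial marker EPCAM made up most of the difference, at 205 ± 88.3 TPM in 3D dSRF and 29.6 ± 5.11 in 3D Control, and 174 ± 9.10 in 2D dSRF and 46.8 ± 4.41 in 2D Control (mean ± SD, n = 3), and it rose in dSRF by 2.65 ± 0.20 on the log2 scale in 3D and 1.78 ± 0.19 in 2D. Only 3 of the 5 had enough counts to be tested. In 3D dSRF 1 of them was called higher and 0 lower, and in 2D dSRF 1 higher and 2 lower. The 6 markers known to be present, VIM and CD44 among them, summed to 8688 to 14010 TPM in 3D dSRF, 9812 to 10322 in 2D dSRF and 3557 to 4666 elsewhere. Of these, the keratins KRT8 (4.19 ± 0.13 in 3D, 3.30 ± 0.12 in 2D) and KRT18 (4.52 ± 0.18 in 3D, 3.21 ± 0.17 in 2D) rose in dSRF. Not all of the 6 did so: 2 were called higher and 1 lower in 3D dSRF (median log2 fold change -0.20). In 2D dSRF 3 were called higher and 3 lower (median 0.05). Of all tested genes, 35.1% were called higher and 31.3% lower in 3D dSRF, and 34.5% and 31.5% in 2D dSRF. EPCAM, KRT8 and KRT18 were called higher in 3D dSRF without the library 3D dSRF 1 too, at 2.94 ± 0.07, 4.39 ± 0.04 and 4.78 ± 0.06. Of 11 leukocyte markers, the defining gene PTPRC reached at most 0.0417 TPM and FCGR3B and S100A8 were at 0 in all libraries. The summed level of those 11 markers was 139.8 to 218 TPM in 3D dSRF, 191.9 to 215 in 2D dSRF and 38.3 to 66.5 in the other 6 groups. CD68 made up most of it. The 4 endothelial markers summed to 7.06 to 12.2 TPM in dSRF of both cultures, mostly VWF and KDR, against 0.436 to 2.52 TPM elsewhere, while CDH5 stayed at or below 0.172 TPM. The 6 fibroblast markers summed to 17.9 to 117.5 TPM in 3D dSRF, the highest value in the library 3D dSRF 1, and 25.0 to 51.1 TPM in 2D dSRF. Their sum was higher in WT and dSAP than in Control. In 3D it was 86.0 to 95.9 TPM in WT, 57.3 to 62.2 in dSAP and 27.7 to 30.3 in Control. In 2D it was 70.7 to 75.1 TPM in WT, 53.7 to 55.4 in dSAP and 28.4 to 37.3 in Control. DCN stayed at or below 0.263 TPM. The part of these markers in the results below was not tested. Since these are bulk libraries, fewer cells that transcribe a gene and less RNA per cell cannot be told apart.

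The genes sit in groups on the genome that matter for reading their levels. Positions are those of GENCODE 29 on GRCh38. On chromosome 4, CXCL8 (73740506 to 73743716, plus strand), CXCL1 (73869393 to 73871242, plus strand), CXCL3 (74036589 to 74038807, minus strand) and CXCL2 (74097035 to 74099293, minus strand) span 358788 bases. On chromosome 2, IL1A (112773915 to 112784590) and IL1B (112829751 to 112836903) both lie on the minus strand with 45160 bases between them. IL6 lies on chromosome 7 (22725884 to 22732002, plus strand), LIF on chromosome 22 (30240447 to 30246851, minus strand), CSF2 on chromosome 5 (132073790 to 132076170, plus strand) and CSF3 on chromosome 17 (40015361 to 40017813, plus strand). The coding sequences of CXCL1 and CXCL2 are 93.5% identical, those of CXCL1 and CXCL3 90.7% and those of CXCL2 and CXCL3 94.4%. Reads of these 3 genes may therefore be split between them, and their separate values are uncertain. CXCL1 and CXCL8 are 56.3% identical. IL6 overlaps the opposite-strand gene STEAP1B, which reached at most 0.510 TPM (3 counts), and LIF overlaps the antisense gene LIF-AS1, not analysed here. The library kit keeps strand, per the labels, and the strand setting used in counting is not stated there.

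Promoter sequences of 6 members are shown because letters of a binding motif of NF-kB recur in them. Each stretch is the 150 bases before the annotated transcript start, 5′ to 3′ on the gene's strand, from RefSeq (GRCh38.p14), and 8 of the 10 members had such a window. Capitals mark matches to GGANNTTCC (core of the NF-kB site) or the longer NF-kB consensus around it, and in CXCL8 also TGANTCA (AP-1) upstream and TATAAA downstream of that core.
CXCL1 (chr4:73869243-73869392, plus strand): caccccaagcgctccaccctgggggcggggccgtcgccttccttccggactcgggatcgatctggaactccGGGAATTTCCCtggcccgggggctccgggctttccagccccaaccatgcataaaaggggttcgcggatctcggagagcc
CXCL2 (chr4:74099196-74099345, minus strand): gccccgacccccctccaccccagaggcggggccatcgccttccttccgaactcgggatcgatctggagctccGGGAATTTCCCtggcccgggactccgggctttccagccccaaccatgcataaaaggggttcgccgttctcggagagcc
CXCL3 (chr4:74038690-74038839, minus strand): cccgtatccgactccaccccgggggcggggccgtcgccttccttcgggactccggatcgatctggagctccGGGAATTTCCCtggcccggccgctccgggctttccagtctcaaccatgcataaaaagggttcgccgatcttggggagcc
CXCL8 (chr4:73740419-73740568, plus strand): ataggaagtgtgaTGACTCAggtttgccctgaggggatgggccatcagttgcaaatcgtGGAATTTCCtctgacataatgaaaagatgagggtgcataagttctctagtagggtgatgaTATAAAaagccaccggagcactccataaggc
IL6 (chr7:22727050-22727199, plus strand): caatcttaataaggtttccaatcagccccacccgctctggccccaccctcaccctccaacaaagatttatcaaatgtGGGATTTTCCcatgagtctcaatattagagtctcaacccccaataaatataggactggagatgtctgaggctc
CSF2 (chr5:132073639-132073788, plus strand): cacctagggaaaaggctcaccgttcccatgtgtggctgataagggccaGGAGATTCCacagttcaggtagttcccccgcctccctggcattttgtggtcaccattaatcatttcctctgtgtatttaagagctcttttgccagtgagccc

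In these 6 promoters the core began 78 bases before the start of CXCL1, 77 before CXCL2, 78 before CXCL3, 91 before CXCL8, 72 before IL6 and 102 before CSF2. Over windows of 250 bases before to 50 after the start, read on both strands, 4.56% of all 35116 windows held the core and 5.91% the consensus, whose matches overlap those of the core. The consensus was found in CXCL1, CXCL2, CXCL3 and IL6. TGANTCA, in 7.71% of windows, was found in CXCL8 137 bases before the start and in IL1A 105 and 55 bases before its downstream start. TATAAA, in 11.5% of windows, was found in CXCL8 31 bases before the start and in the window of the upstream IL1A start. The CArG box, the site of SRF, was in 1.29% of windows and in none of the members' windows. LIF and CSF3 had no window and were not searched for any of these motifs. The window of IL1B held none of these motifs. A match describes letters in a window and does not show binding.

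**Figure D1:**
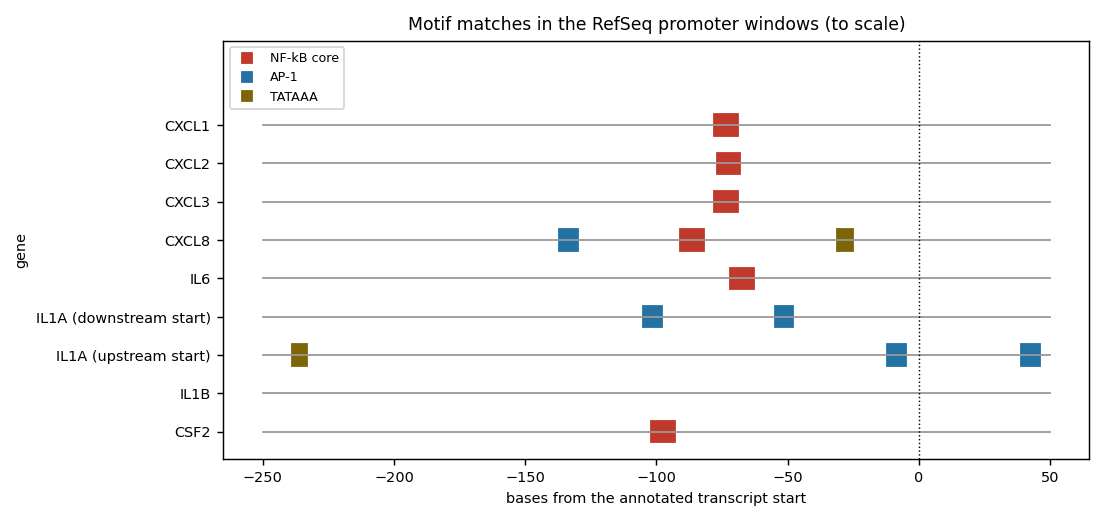
Motif matches in the promoter windows of 8 member genes, drawn to scale against bases from the annotated transcript start (x axis), with 1 line per window and coloured boxes for the NF-kB core, AP-1 and TATAAA. The core lies between 102 and 72 bases before the start in CXCL1, CXCL2, CXCL3, CXCL8, IL6 and CSF2, and IL1A has 2 annotated starts.

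Together the 10 messages were a sizeable output that shifted in amount and in make-up with line and culture. Levels are given in TPM, a share of all transcripts that is scaled for gene length, which allows genes to be compared. Their summed level was 445 ± 11.8 TPM in 3D WT and 364 ± 34.8 in 3D dSAP (mean ± SD, n = 3), 2498, 521 and 541 TPM in the libraries 3D dSRF 1, 2 and 3, and 945 ± 71.7 TPM in 3D Control. In 2D it was 451 ± 20.8 TPM in WT, 273 ± 15.8 in dSAP, 978 ± 18.9 in dSRF and 520.4 ± 41.0 in Control. CSF2 held the largest share in dSRF, 43.5%, 33.9% and 33.1% in the 3D libraries and 52.7% in 2D, and in 2D WT (31.6%) and 2D dSAP (23.7%). CXCL8 held the largest share in 3D WT (32.9%), in 3D dSAP (31.7%) and in Control, 34.0% in 3D and 30.9% in 2D.

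**Figure D2:**
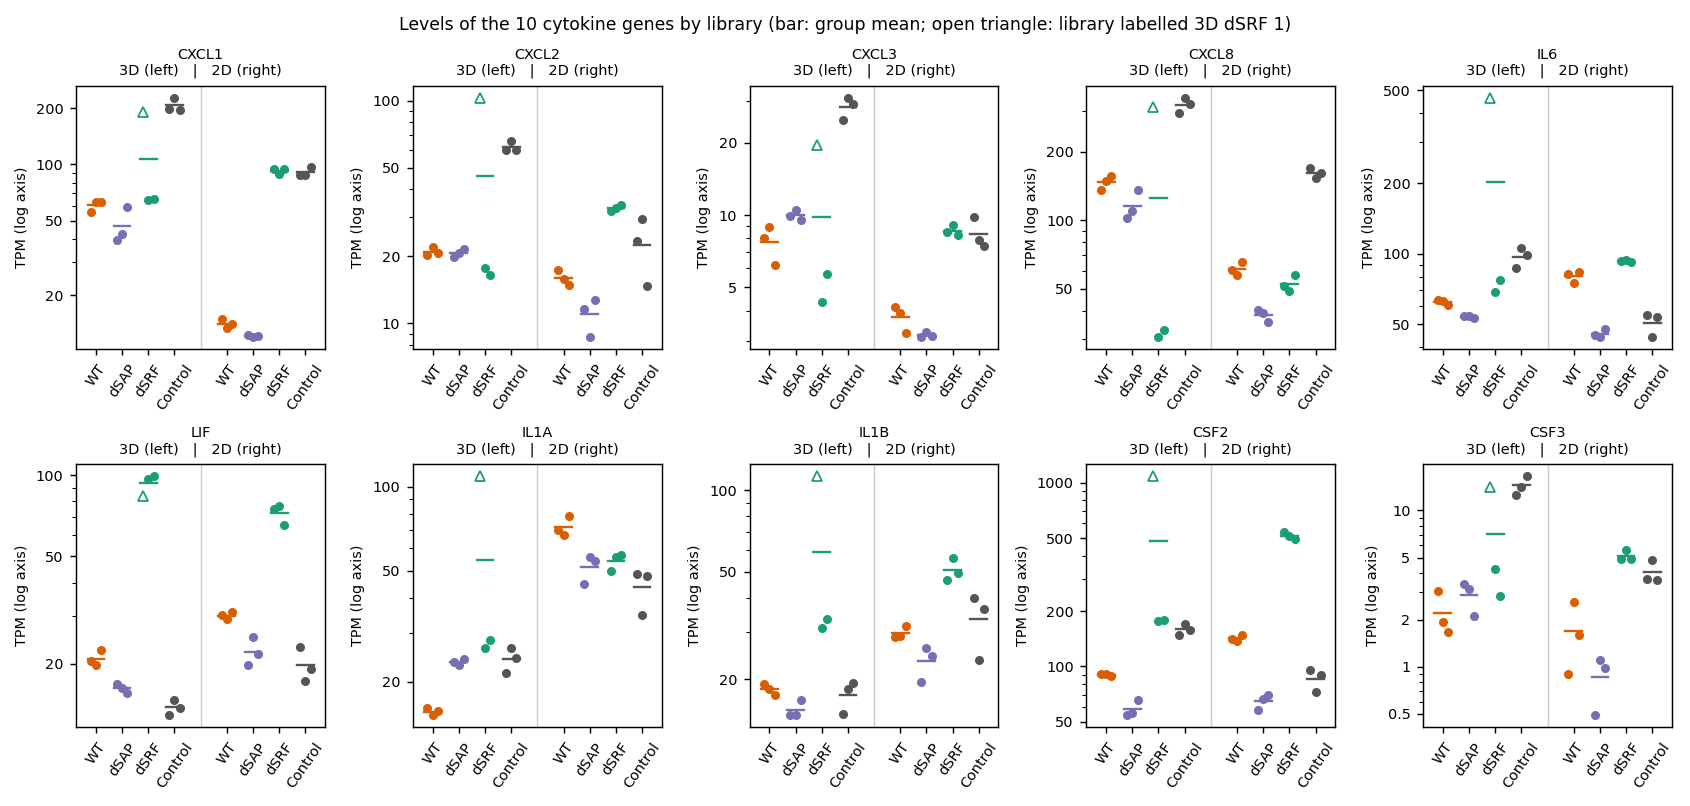
TPM of each of the 10 genes in each library (y axis, log scale), grouped by line in 3D (left of the grey line) and 2D (right), with a bar at the group mean and an open triangle for the library 3D dSRF 1. The triangle lies far above the other 3D dSRF libraries for every gene but LIF.

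Among the chemokines, CXCL1 fell in the WT and dSAP lines in both cultures. In 3D it stood at 55.6, 62.8 and 63.1 TPM in WT, 39.5, 42.6 and 59.3 in dSAP, 190.4, 64.2 and 65.3 in dSRF and 197, 228 and 196 in Control (libraries 1, 2 and 3). In 2D it stood at 14.9, 13.3 and 14.0 TPM in WT, 12.3, 11.9 and 12.0 in dSAP, 94.6, 89.1 and 94.5 in dSRF and 87.9, 88.1 and 96.7 in Control. The WT and dSAP libraries lay below all Control libraries of their culture, whereas 2D dSRF and 2D Control overlapped. The log2 fold change over Control (± standard error of the fit, here and below) was -1.69 ± 0.30 (adjusted p = 0.000158) in 3D WT by edgeR's quasi-likelihood test with Benjamini-Hochberg adjustment over all tested genes, the test behind every adjusted p here. It was -2.17 ± 0.30 (adjusted p = 1.99e-05) in 3D dSAP, -2.60 ± 0.34 (adjusted p = 4.72e-06) in 2D WT and -2.91 ± 0.34 (adjusted p = 2.36e-06) in 2D dSAP. In 3D dSRF it was -0.96 ± 0.29 (adjusted p = 0.00629) with all libraries and -1.76 ± 0.11 (adjusted p = 1.55e-12) without the library 3D dSRF 1, and in 2D dSRF it was -0.05 ± 0.29 (adjusted p = 0.895).

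CXCL8, the strongest neutrophil attractant of the family in humans, had its highest group mean in 3D Control. In 3D it stood at 135, 149 and 156 TPM in WT, 102, 109.6 and 136 in dSAP, 313, 30.7 and 33.1 in dSRF and 296, 345 and 322 in Control. The 2D values were 60.4, 57.5 and 65.3 TPM in WT, 40.4, 39.1 and 35.9 in dSAP, 51.6, 48.9 and 57.2 in dSRF and 169, 153 and 161 in Control. In 2D all 9 libraries of the MRTF-A lines lay below the 3 Control libraries, and in 3D only the library 3D dSRF 1 reached the Control range. CXCL8 fell, with log2 fold changes of -1.48 ± 0.55 (adjusted p = 0.0497) in 3D dSAP, -1.32 ± 0.54 (adjusted p = 0.0402) in 3D dSRF, -2.12 ± 0.58 (adjusted p = 0.00897) in 2D dSAP and -1.70 ± 0.57 (adjusted p = 0.0144) in 2D dSRF. The call in 3D dSAP lies at the threshold and was lost in 21 of 24 fits that each left out 1 library (adjusted p = 0.0532 to 0.139), and the call in 3D dSRF was lost without the library 3D dSRF 2 or 3 or any 1 Control library (adjusted p = 0.0575 to 0.145). Without the library 3D dSRF 1 the 3D dSRF value was -3.37 ± 0.12 (adjusted p = 5.25e-15), the lowest of all member values over Control. In WT the differences were -1.08 ± 0.54 (adjusted p = 0.139) in 3D and -1.31 ± 0.56 (adjusted p = 0.0743) in 2D, and both passed the threshold without that library (adjusted p = 5.9e-09 and 1.44e-09).

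CXCL2 and CXCL3 bind the neutrophil receptor CXCR2, as CXCL1 does. CXCL2 ran from 8.68 TPM in a 2D dSAP library to 103 TPM in the library 3D dSRF 1, and CXCL3 from 3.10 to 30.9 TPM. In 3D both fell in WT and dSAP. CXCL2 stood at 21.0 ± 0.950 TPM in WT, 20.7 ± 0.810 in dSAP and 62.0 ± 3.56 in Control (mean ± SD, n = 3), with log2 fold changes of -1.49 ± 0.48 (adjusted p = 0.0204) in WT and -1.62 ± 0.48 (adjusted p = 0.0157) in dSAP. Without the library 3D WT 1 or 3 the WT call was lost (adjusted p = 0.061 to 0.0613), and without 3D dSAP 1 or 2 the dSAP call (adjusted p = 0.0513 to 0.0547). CXCL3 stood at 7.70 ± 1.38 TPM in WT, 9.97 ± 0.484 in dSAP and 28.3 ± 3.13 in Control, with log2 fold changes of -1.83 ± 0.36 (adjusted p = 0.000524) in WT and -1.49 ± 0.36 (adjusted p = 0.00346) in dSAP. In 3D dSRF, CXCL3 fell to a log2 fold change of -1.53 ± 0.36 (adjusted p = 0.000866), or -2.60 ± 0.20 (adjusted p = 6.53e-12) without the library 3D dSRF 1. CXCL2 was not called with that library, at -0.43 ± 0.46 (adjusted p = 0.429), and was called lower without it, at -1.98 ± 0.18 (adjusted p = 2.55e-10). The libraries 3D dSRF 2 and 3 held 17.7 and 16.5 TPM of CXCL2, below all 3D WT, dSAP and Control libraries. In 2D, CXCL3 fell, with -1.08 ± 0.39 (adjusted p = 0.0357) in WT and -1.48 ± 0.40 (adjusted p = 0.00767) in dSAP, and the WT call was lost with each of the 6 WT and Control libraries in turn left out (adjusted p = 0.0504 to 0.118). CXCL2 was at -0.37 ± 0.50 (adjusted p = 0.602) in 2D WT and -1.06 ± 0.51 (adjusted p = 0.123) in 2D dSAP. In 2D dSRF neither passed the threshold, with 0.48 ± 0.48 (adjusted p = 0.404) for CXCL2 and -0.04 ± 0.37 (adjusted p = 0.927) for CXCL3. When the library 3D dSRF 1 was left out, CXCL2 was called lower in 2D dSAP (adjusted p = 7.82e-06) and higher in 2D dSRF (adjusted p = 0.00665).

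The balance between CXCL8 and CXCL1 differed from Control in opposite directions in WT and dSAP and in most dSRF libraries. The TPM ratio of CXCL8 to CXCL1 in 2D was 4.07, 4.33 and 4.68 in WT, 3.29, 3.28 and 2.98 in dSAP, 0.545, 0.549 and 0.605 in dSRF and 1.92, 1.73 and 1.67 in Control. In 3D it was 2.43, 2.37 and 2.47 in WT, 2.59, 2.57 and 2.29 in dSAP, 1.65, 0.478 and 0.506 in dSRF and 1.503, 1.51 and 1.64 in Control. WT and dSAP lay above Control in every library of both cultures and dSRF below it in all but the library 3D dSRF 1, whose ratio lay next to and just above the highest 3D Control value. In 3D the WT ratios lay within the range of dSAP. These ratios are a description without a test.

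**Figure D3:**
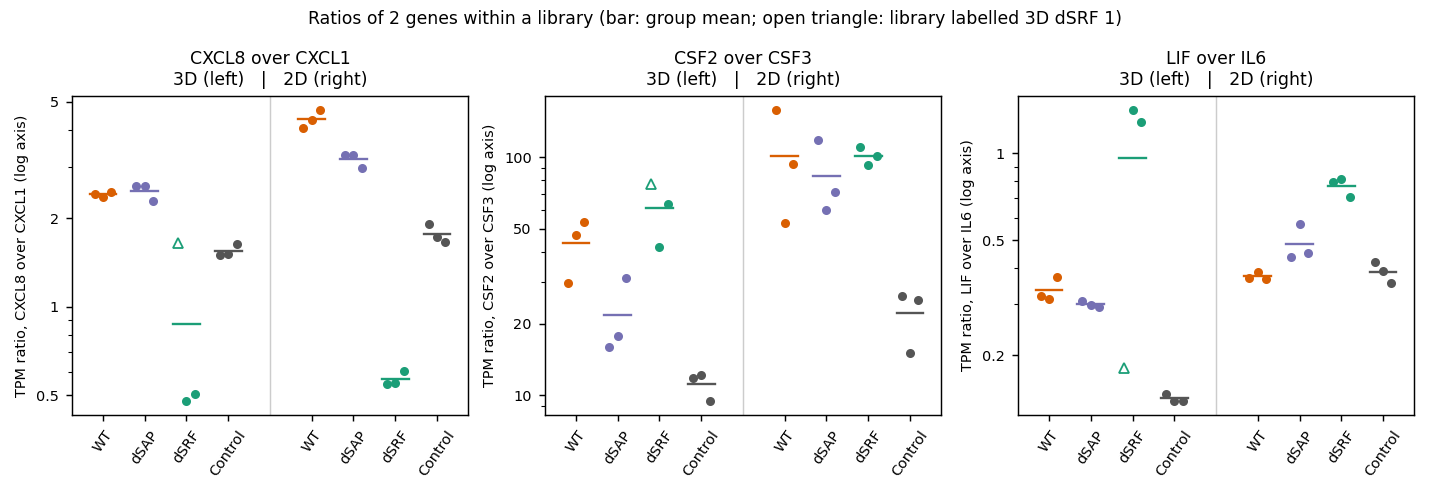
TPM ratios within each library (y axes, log scale) of CXCL8 to CXCL1, CSF2 to CSF3 and LIF to IL6, by line in 3D (left of the grey line) and 2D (right), with bars at group means and an open triangle for the library 3D dSRF 1. The CXCL8 to CXCL1 ratio is above 2 in all WT and dSAP libraries and below 0.7 in 5 of the 6 dSRF libraries.

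The interleukin-1 pair can induce the other members. With all libraries neither gene passed the test over Control in WT or dSAP and both rose in 3D dSRF, whereas without the library 3D dSRF 1 the rise of IL1A there was lost and IL1A in both WT cultures and IL1B in 2D dSAP were called. IL1A, whose protein is released from damaged cells, stood in 3D at 16.1, 15.1 and 15.7 TPM in WT, 23.6, 22.9 and 24.1 in dSAP, 109, 26.5 and 28.2 in dSRF and 21.5, 26.3 and 24.4 in Control. In 2D it stood at 69.9, 66.9 and 78.3 TPM in WT, 44.9, 55.7 and 54.3 in dSAP, 49.96, 55.8 and 56.8 in dSRF and 48.5, 34.8 and 47.9 in Control. All 2D libraries lay above all 3D libraries of IL1A except the library 3D dSRF 1, which was the highest of the 24. The 3D dSRF change was 1.18 ± 0.36 (adjusted p = 0.00802) with all libraries and 0.12 ± 0.13 (adjusted p = 0.435) without that library. In WT the change over Control was -0.56 ± 0.38 (adjusted p = 0.281) in 3D and 0.79 ± 0.35 (adjusted p = 0.0863) in 2D, and without the library 3D dSRF 1 these passed the threshold in opposite directions (adjusted p = 0.00114 and 4.91e-06). In dSAP it was -0.06 ± 0.37 in 3D and 0.19 ± 0.35 in 2D (adjusted p = 0.934 and 0.733).

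IL1B, which is made as a precursor and cut by caspase-1, stood in 3D at 19.2, 18.5 and 17.5 TPM in WT, 14.7, 14.8 and 16.8 in dSAP, 113, 30.9 and 33.5 in dSRF and 14.9, 18.4 and 19.3 in Control. The 2D levels were 28.6, 28.9 and 31.5 TPM in WT, 19.5, 26.1 and 24.4 in dSAP, 46.8, 56.1 and 49.4 in dSRF and 40.0, 23.5 and 36.5 in Control. In each culture the dSRF libraries lay above all others. Over Control, IL1B was at 0.17 ± 0.37 (adjusted p = 0.772) in 3D WT, -0.18 ± 0.38 (adjusted p = 0.776) in 3D dSAP, -0.06 ± 0.36 (adjusted p = 0.926) in 2D WT and -0.55 ± 0.36 (adjusted p = 0.269) in 2D dSAP. In 2D dSAP it was called lower without the library 3D dSRF 1, at -0.55 ± 0.15 (adjusted p = 0.00593). IL1B rose in 3D dSRF by 1.86 ± 0.37 (adjusted p = 0.0002), and by 0.89 ± 0.17 (adjusted p = 0.000145) without that library. In 2D dSRF the value was 0.52 ± 0.35 (adjusted p = 0.21), called only without the library 3D dSRF 1 (adjusted p = 0.00461). In 2D the TPM ratio of IL1A to IL1B was 2.45, 2.32 and 2.48 in WT, 2.31, 2.13 and 2.22 in dSAP, 1.07, 0.995 and 1.15 in dSRF and 1.21, 1.48 and 1.31 in Control.

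LIF, which keeps embryonic stem cells undifferentiated in the mouse and activates STAT3 in many tumour cells, was the member that rose in most comparisons. In 3D it stood at 20.4, 19.8 and 22.5 TPM in WT, 16.8, 16.2 and 15.6 in dSAP, 83.7, 97.3 and 99.5 in dSRF and 12.8, 14.7 and 13.7 in Control. The plates held 30.3, 29.2 and 31.0 TPM in WT, 19.8, 25.0 and 21.7 in dSAP, 74.7, 76.8 and 65.6 in dSRF and 23.1, 17.3 and 19.1 in Control. All 6 dSRF libraries lay above all 18 others, and it is the only member for which the library 3D dSRF 1 was the lowest of its group. LIF rose by 2.71 ± 0.08 (adjusted p = 6.13e-16) in 3D dSRF, by 2.76 ± 0.07 (adjusted p = 1.37e-21) there without that library, and by 1.76 ± 0.08 (adjusted p = 2.51e-13) in 2D dSRF. It rose by 0.70 ± 0.08 (adjusted p = 5.8e-07) in 3D WT, by 0.71 ± 0.08 (adjusted p = 3.24e-07) in 2D WT and by 0.21 ± 0.08 (adjusted p = 0.046) in 3D dSAP, and stood at 0.06 ± 0.08 (adjusted p = 0.576) in 2D dSAP. The rise in 3D dSAP lost its call in 14 of 24 fits without 1 library (adjusted p = 0.0513 to 0.141) and with RLE size factors, DESeq2, no filter, TPM values or a replicate block (adjusted p = 0.062 to 0.134).

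IL6, the main inducer of acute-phase proteins in the liver, responded less evenly. In 3D it stood at 63.6, 63.0 and 60.3 TPM in WT, 54.2, 54.3 and 52.9 in dSAP, 465, 68.9 and 77.2 in dSRF and 87.4, 105 and 98.7 in Control. In the plates it stood at 81.7, 75.3 and 84.0 TPM in WT, 45.0, 44.1 and 47.9 in dSAP, 93.6, 94.2 and 92.7 in dSRF and 54.8, 44.0 and 53.8 in Control. The library 3D dSRF 1 held several times as much as any other, while the libraries 3D dSRF 2 and 3 lay below all 3D Control libraries. IL6 was called higher in 3D dSRF with all libraries, at 1.12 ± 0.46 (adjusted p = 0.0409), and lower without the library 3D dSRF 1, at -0.45 ± 0.09 (adjusted p = 5.35e-05). The rise was also lost without any 1 of the 3D Control libraries (adjusted p = 0.0647 to 0.106). In 2D, WT and dSRF lay above all Control libraries, with 0.76 ± 0.48 (adjusted p = 0.231) in WT and 0.81 ± 0.48 (adjusted p = 0.149) in dSRF, which passed the threshold only without that library (adjusted p = 1.14e-08 and 1.34e-09). In 3D WT and dSAP the values were -0.58 ± 0.47 (adjusted p = 0.383) and -0.88 ± 0.48 (adjusted p = 0.191), and without it both were called lower (adjusted p = 6.95e-07 and 1.21e-09). In 2D dSAP it stood at -0.19 ± 0.49 (adjusted p = 0.818). The TPM ratio of LIF to IL6 in 3D was 0.1801, 1.41 and 1.29 in dSRF and 0.147, 0.139 and 0.139 in Control.

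CSF2, the granulocyte-macrophage factor, reached the highest single value of any member. In 3D it stood at 90.6, 91.4 and 89.0 TPM in WT, 54.1, 56.1 and 66.0 in dSAP, 1087, 177 and 179 in dSRF and 149, 171 and 157 in Control. Levels in 2D were 142, 138 and 149 TPM in WT, 58.0, 66.4 and 70.3 in dSAP, 537, 514 and 494 in dSRF and 95.3, 72.7 and 90.0 in Control. The 3 libraries of 2D dSRF were high and close to each other, whereas in 3D the libraries dSRF 2 and 3 were above the 3 Control libraries by little. CSF2 rose by 2.49 ± 0.49 (adjusted p = 0.000197) in 2D dSRF. In 3D dSRF it rose by 1.62 ± 0.47 (adjusted p = 0.00514) with all libraries and stood at 0.08 ± 0.09 (adjusted p = 0.437) without the library 3D dSRF 1. In 3D it fell in dSAP, at -1.44 ± 0.49 (adjusted p = 0.0344), a call that did not hold when 1 of the dSAP or Control libraries was left out, whichever it was (adjusted p = 0.0589 to 0.0989), and was at -0.73 ± 0.48 (adjusted p = 0.268) in WT. In 2D it stood at 0.82 ± 0.48 (adjusted p = 0.194) in WT and -0.43 ± 0.50 (adjusted p = 0.55) in dSAP. With the library 3D dSRF 1 left out it was called lower in 3D WT, higher in 2D WT and lower in 2D dSAP (adjusted p = 2.92e-07, 5.67e-08 and 0.000584).

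CSF3, the granulocyte factor used to raise neutrophil numbers, was the least abundant member, with 5 to 237 counts a library. In 3D it stood at 3.05, 1.94 and 1.67 TPM in WT, 3.39, 3.15 and 2.12 in dSAP, 14.0, 4.20 and 2.82 in dSRF and 12.6, 14.2 and 16.6 in Control. In 2D it stood at 0.899, 2.59 and 1.59 TPM in WT, 0.489, 1.101 and 0.988 in dSAP, 4.86, 5.55 and 4.88 in dSRF and 3.66, 4.85 and 3.57 in Control. In both cultures all WT and dSAP libraries lay below all Control libraries. CSF3 fell, with log2 fold changes of -2.61 ± 0.48 (adjusted p = 0.000233) in 3D WT, -2.40 ± 0.47 (adjusted p = 0.000618) in 3D dSAP and -2.26 ± 0.55 (adjusted p = 0.00354) in 2D dSAP, and was at -1.08 ± 0.50 (adjusted p = 0.1) in 2D WT, where it was called lower without the library 3D dSRF 1, at -1.08 ± 0.30 (adjusted p = 0.00396). In 3D dSRF it was at -0.95 ± 0.44 (adjusted p = 0.0632) with all libraries and was called lower without the library 3D dSRF 1, at -2.08 ± 0.31 (adjusted p = 1.47e-06), and in 2D dSRF it was at 0.26 ± 0.47 (adjusted p = 0.641). The TPM ratio of CSF2 to CSF3 was 110.5, 92.5 and 101 in 2D dSRF and 26.0, 15.0 and 25.2 in 2D Control.

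**Figure D4:**
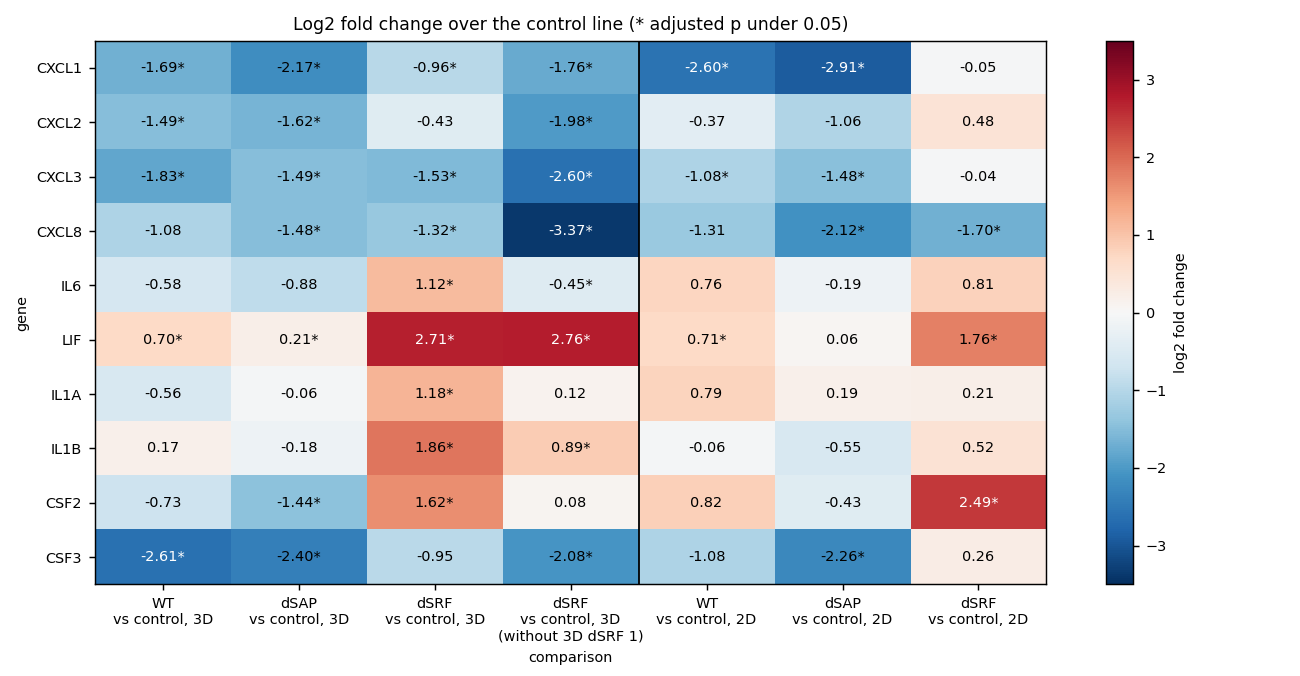
Log2 fold change of each member gene over the Control line of the same culture (columns: WT, dSAP, dSRF and dSRF without the library 3D dSRF 1 in 3D, then WT, dSAP and dSRF in 2D), with an asterisk at an adjusted p under 0.05. The values of the 4 chemokines and CSF3 lie below 0 in WT and dSAP of both cultures, and LIF in dSRF stands at 2.71 in 3D and 1.76 in 2D.

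Counted over the members, the direction differed by line. In 3D WT 1 of 10 rose and 4 fell, when 35.0% of all tested genes were called, and in 3D dSAP 1 rose and 6 fell, when 29.6% were called. In 2D WT 1 rose and 2 fell (39.3% of all genes called), and in 2D dSAP 0 rose and 4 fell (32.9%). In 3D dSRF 5 rose and 3 fell with all libraries (66.4%), and 2 rose and 6 fell without the library 3D dSRF 1 (72.8%). In 2D dSRF 2 rose and 1 fell, against 66.0% of all genes, so the share of members called there was below that of all genes. By direction, 18.0% of all genes rose and 17.0% fell in 3D WT, 16.5% and 13.1% in 3D dSAP. These shares were 20.1% and 19.2% in 2D WT and 17.5% and 15.4% in 2D dSAP. For dSRF they were 35.1% and 31.3% in 3D, 37.2% and 35.6% there without the library 3D dSRF 1, and 34.5% and 31.5% in 2D. The share of members that fell was near that of all genes in 2D WT and in 3D dSRF with all libraries. The median log2 fold change of the members was -0.90 in 3D WT, -1.46 in 3D dSAP, -0.21 in 2D WT and -0.81 in 2D dSAP, and that of all tested genes lay between -0.02 and 0.02 in each of the 6 comparisons. In dSRF it was 0.35 in 3D, -1.10 there without the library 3D dSRF 1, and 0.37 in 2D. The comparisons within a culture share the same Control libraries. Of the 64 member calls over all 17 comparisons described here and below, 36 were kept under all alternatives tried and 23 were lost in at least 1 fit that left out a library. In at least 1 of the other settings 25 were lost, some of them the same calls. In 3D dSRF over Control, the calls of CXCL1, CXCL3, CXCL8, IL6, IL1A and CSF2 were lost with only the libraries compared in edgeR's fit (adjusted p = 0.0744 to 0.285). Without the library 3D dSRF 1 the members called numbered 9 in 3D WT, 8 in 3D dSAP, 8 in 2D WT, 7 in 2D dSAP and 6 in 2D dSRF, when 48.1%, 44.0%, 51.9%, 47.1% and 72.0% of all genes were called.

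Set against the WT line, the dSAP line had LIF as its only called member. The lines also differed in MRTFA level, as given above, and the part of that in the values below was not tested. LIF was lower in dSAP than in WT, with log2 fold changes of -0.49 ± 0.08 (adjusted p = 0.000216) in 3D and -0.65 ± 0.08 (adjusted p = 1.04e-05) in 2D, and it was the 1 member called in each culture, when 12.1% and 12.8% of all genes were called. Without the library 3D dSRF 1, 6 members were called in 3D and 8 in 2D (27.2% and 27.7% of all genes). They included CSF2, at -0.72 ± 0.10 (adjusted p = 4.54e-06) in 3D and -1.26 ± 0.09 (adjusted p = 8.57e-10) in 2D, and IL6, at -0.30 ± 0.08 (adjusted p = 0.00695) in 3D and -0.95 ± 0.08 (adjusted p = 2.27e-09) in 2D, both lower in dSAP. IL1A was higher in dSAP in 3D (0.50 ± 0.13, adjusted p = 0.00583) and lower in 2D (-0.60 ± 0.11, adjusted p = 0.000313). In 2D the dSRF line exceeded WT in CXCL1 (2.55 ± 0.34), CXCL3 (1.03 ± 0.40), LIF (1.05 ± 0.07), CSF2 (1.67 ± 0.47) and CSF3 (1.34 ± 0.50), with adjusted p of 2.29e-06, 0.0291, 3.53e-10, 0.00468 and 0.0258, when 64.0% of all genes were called, 33.6% higher and 30.4% lower. The CXCL3 call was lost without the library 2D WT 2 or 3 or 2D dSRF 1 or 2 (adjusted p = 0.0527 to 0.0927), and the CSF3 call without 2D WT 1 or 3 or 2D dSRF 3 (adjusted p = 0.0613 to 0.123). In 3D, 7 members were called higher in dSRF than in WT, namely CXCL1, IL6, LIF, IL1A, IL1B, CSF2 and CSF3, when 65.9% of all genes were called and 34.2% were called higher and 31.6% lower. The CXCL1 call was also lost without any 1 of the 3D WT libraries (adjusted p = 0.0604 to 0.0981). With only the libraries compared in edgeR's fit, LIF kept its call. The calls of CXCL1, IL6, IL1A, IL1B, CSF2 and CSF3 were lost there (adjusted p = 0.0508 to 0.246). Once the library 3D dSRF 1 was left out, 4 were higher (LIF, IL1A, IL1B and CSF2) and 3 lower (CXCL2, CXCL3 and CXCL8) of 7 called, against 72.9% of all genes, 36.5% higher and 36.3% lower. There CXCL8 stood at -2.29 ± 0.12 (adjusted p = 2.3e-12) and LIF at 2.06 ± 0.07 (adjusted p = 2.01e-19).

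Growth on matrigel moved members in both directions. In the Control line the 3D cultures held more CXCL1 (1.11 ± 0.29, adjusted p = 0.00395), CXCL2 (1.35 ± 0.48, adjusted p = 0.0263), CXCL3 (1.63 ± 0.36, adjusted p = 0.00102) and CSF3 (1.84 ± 0.46, adjusted p = 0.00267) than the 2D cultures. They held less LIF (-0.65 ± 0.08, adjusted p = 1.35e-06), IL1A (-0.95 ± 0.36, adjusted p = 0.0387) and IL1B (-1.13 ± 0.37, adjusted p = 0.0173). These were 7 of 10 members, when 47.4% of all genes were called, 23.0% higher and 24.4% lower, and all 10 were called without the library 3D dSRF 1 (58.6% of all genes). In WT, CXCL1 was higher in 3D (2.01 ± 0.34, adjusted p = 6.93e-05), whereas LIF (-0.66 ± 0.08, adjusted p = 7.49e-07), IL1A (-2.30 ± 0.38, adjusted p = 5.49e-05) and IL1B (-0.90 ± 0.37, adjusted p = 0.0496) were lower, 4 members against 50.0% of all genes, 24.4% higher and 25.7% lower. In dSAP, CXCL1 (1.84 ± 0.34, adjusted p = 0.000229), CXCL3 (1.61 ± 0.40, adjusted p = 0.00253), CXCL8 (1.53 ± 0.58, adjusted p = 0.0371) and CSF3 (1.70 ± 0.56, adjusted p = 0.0172) were higher in 3D and LIF (-0.50 ± 0.08, adjusted p = 2.98e-05) and IL1A (-1.20 ± 0.37, adjusted p = 0.0109) lower, 6 members against 47.8% of all genes, 24.2% higher and 23.5% lower. Several of these calls were lost when 1 library was left out. In Control, those of CXCL2 (adjusted p = 0.0578 to 0.107), IL1A (adjusted p = 0.0612 to 0.108) and IL1B (adjusted p = 0.0515 to 0.0644) were each lost without the library 2D Control 1 or 3, and also without 3D Control 2 for CXCL2, any 1 of the 3D Control libraries for IL1A and 3D Control 1 for IL1B. In WT that of IL1B lies at the threshold and was lost in 20 of 24 fits without 1 library (adjusted p = 0.0511 to 0.11). In dSAP that of CXCL8 was lost with each of the 6 dSAP libraries in turn left out (adjusted p = 0.0525 to 0.0928), and that of CSF3 without 3D dSAP 2 or 2D dSAP 1 (adjusted p = 0.052 to 0.0932).

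In dSRF the direction depended on the library 3D dSRF 1. With all libraries LIF alone was called, higher in 3D by 0.30 ± 0.07 (adjusted p = 0.007), when 17.0% of all genes were called, 7.19% higher and 9.84% lower. That call was lost without the library 2D dSRF 3 (adjusted p = 0.0513). Once the library 3D dSRF 1 was left out, 9 members were called, 1 higher in 3D and 8 lower, against 48.2% of all genes, 19.8% higher and 28.4% lower. LIF was higher by 0.35 ± 0.06 (adjusted p = 7.49e-05). Among the lower members, the log2 fold change was -1.64 ± 0.09 (adjusted p = 3.12e-12) for CSF2, -1.102 ± 0.18 (adjusted p = 1.46e-05) for CXCL2, -1.04 ± 0.13 (adjusted p = 2.39e-06) for IL1A and -0.78 ± 0.13 (adjusted p = 8.27e-05) for CXCL8. CXCL8 was higher in 3D than in 2D in the Control, WT and dSAP libraries without overlap, and lower in the libraries 3D dSRF 2 and 3 than in all 2D dSRF libraries. In IL1A and IL1B the 3D libraries of Control, WT and dSAP all lay below the 2D libraries of the same line.

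**Figure D5:**
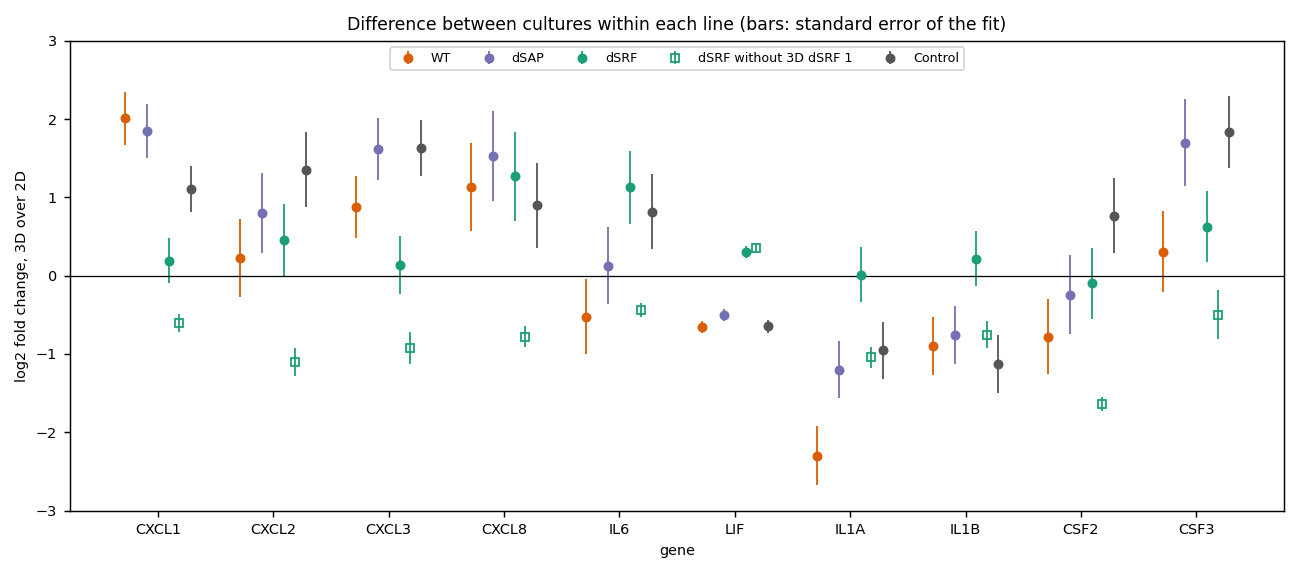
Log2 fold change of 3D over 2D for each member gene (x axis) within WT, dSAP, dSRF, dSRF without the library 3D dSRF 1 and Control, with bars of 1 standard error of the fit. CXCL1, CXCL2, CXCL3 and CXCL8 lie above 0 in WT, dSAP and Control, and lie below 0 in dSRF once the library 3D dSRF 1 is left out.

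Whether a line's effect differed between the cultures was tested directly, as the difference over Control in 3D minus that in 2D. For dSRF this difference was -1.49 ± 0.51 (adjusted p = 0.0353) for CXCL3 and 0.95 ± 0.11 (adjusted p = 1.7e-06) for LIF, 2 members when 29.2% of all genes were called. The CXCL3 call was lost in 9 of 24 fits without 1 library (adjusted p = 0.0532 to 0.0799). Without the library 3D dSRF 1, 8 members were called (43.8% of all genes), with CSF2 at -2.40 ± 0.13 (adjusted p = 7.66e-13), CXCL3 at -2.55 ± 0.26 (adjusted p = 8.43e-09), CXCL2 at -2.46 ± 0.23 (adjusted p = 4.03e-09), CSF3 at -2.34 ± 0.41 (adjusted p = 4.27e-05) and LIF at 1.01 ± 0.10 (adjusted p = 4.14e-09). CXCL1, CXCL8 and IL6 were the other 3, at -1.71 ± 0.15, -1.68 ± 0.16 and -1.25 ± 0.12 (adjusted p = 2.34e-09, 6.95e-08 and 2.92e-09). For WT, edgeR called 0 members (9.18% of all genes), with 3 at an unadjusted p under 0.05 (IL1A, CSF2 and CSF3), and DESeq2 called 1. Without the library 3D dSRF 1 it called 7 (23.8% of all genes), among them CSF2 at -1.54 ± 0.12 (adjusted p = 5.72e-09), IL6 at -1.34 ± 0.11 (adjusted p = 2.13e-09), IL1A at -1.34 ± 0.17 (adjusted p = 7.7e-06) and CXCL1 at 0.90 ± 0.16 (adjusted p = 0.00015). For dSAP, edgeR and DESeq2 each called 0 members (2.34% of all genes by edgeR), with 0 at an unadjusted p under 0.05, and without that library edgeR called 4 (11.4%): CXCL1, CXCL8, IL6 and CSF2.

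Receptors and relatives of the members were read from lists of pathway genes. Of the 6 ELR chemokine relatives and receptors, none had enough counts to be tested: CXCL6 and PPBP were at 0 in all libraries, CXCL5 reached at most 0.193 TPM, and the receptors CXCR1 and CXCR2 at most 0.0529 and 0.147 TPM. CSF3R, the receptor of CSF3, was at 0 in all libraries. CSF2RA, the specific chain of the CSF2 receptor, stood at 122 ± 21.9 TPM in 3D dSRF and 36.8 ± 2.61 in 3D Control, and at 130.2 ± 5.73 in 2D dSRF and 60.02 ± 1.45 in 2D Control (mean ± SD, n = 3). It rose in dSRF by 1.72 ± 0.10 on the log2 scale in 3D and by 1.05 ± 0.10 in 2D. CSF2RB, the signalling chain of that receptor, was low, at 2.01 ± 0.254 TPM in 3D dSRF and 0.0237 ± 0.0411 in 3D Control. CSF1, the macrophage factor, fell with every MRTF-A form, with log2 fold changes of -1.30 ± 0.11 in 3D WT, -1.13 ± 0.11 in 3D dSAP, -0.82 ± 0.11 in 3D dSRF, -2.08 ± 0.12 in 2D WT, -1.71 ± 0.12 in 2D dSAP and -0.58 ± 0.11 in 2D dSRF, all called. Over Control, the 5 tested CSF ligands and receptors had 1 higher and 2 lower (median 0.24) in 3D WT, 1 higher and 1 lower (median -0.02) in 3D dSAP, 3 higher and 2 lower (median 1.72) in 3D dSRF, 1 higher and 2 lower (median 0.10) in 2D WT, 1 higher and 1 lower (median 0.08) in 2D dSAP and 3 higher and 1 lower (median 1.05) in 2D dSRF. Over all tested genes in the same order, 18.0%, 16.5%, 35.1%, 20.1%, 17.5% and 34.5% were called higher and 17.0%, 13.1%, 31.3%, 19.2%, 15.4% and 31.5% lower.

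The IL6 family around IL6 and LIF was read in the same way. Of 12 tested ligands, receptors and signal genes over Control there were 6 higher and 1 lower (median 0.40) in 3D WT, 6 higher and 0 lower (median 0.24) in 3D dSAP, 8 higher and 1 lower (median 0.68) in 3D dSRF, 5 higher and 1 lower (median 0.24) in 2D WT, 5 higher and 2 lower (median 0.22) in 2D dSAP and 4 higher and 3 lower (median 0.03) in 2D dSRF. In 2D dSRF these shares were near those of all tested genes, of which 34.5% were called higher and 31.5% lower. For 3D WT, 3D dSAP, 3D dSRF, 2D WT and 2D dSAP, 18.0%, 16.5%, 35.1%, 20.1% and 17.5% of all tested genes were called higher. Called lower there were 17.0%, 13.1%, 31.3%, 19.2% and 15.4%. IL11, another ligand of the family, rose in WT by 2.11 ± 0.27 in 3D and 2.08 ± 0.24 in 2D, and in dSAP by 2.38 ± 0.27 and 1.49 ± 0.24. STAT3, the transcription factor downstream of these receptors, rose in 3D WT (0.72 ± 0.08), 3D dSAP (0.49 ± 0.08) and 3D dSRF (0.71 ± 0.08). CLCF1 rose in dSRF by 2.29 ± 0.13 in 3D and 2.27 ± 0.13 in 2D. SOCS3, the feedback inhibitor of STAT3 signalling, fell in 2D WT (-1.28 ± 0.18) and 2D dSAP (-0.54 ± 0.17).

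In the IL1 family, the antagonist was among the genes that moved furthest. Of 10 tested genes there were 2 higher and 2 lower (median -0.01) in 3D WT, 3 higher and 1 lower (median -0.03) in 3D dSAP, 5 higher and 2 lower (median 0.52) in 3D dSRF, 2 higher and 1 lower (median 0.25) in 2D WT, 2 higher and 1 lower (median 0.24) in 2D dSAP and 4 higher and 2 lower (median 0.03) in 2D dSRF. In the same order, 18.0%, 16.5%, 35.1%, 20.1%, 17.5% and 34.5% of all tested genes were called higher. Called lower were 17.0%, 13.1%, 31.3%, 19.2%, 15.4% and 31.5%. The counts of 3D WT were near these shares. IL1RN, the receptor antagonist that blocks IL1A and IL1B, rose in dSRF by 4.02 ± 0.27 in 3D and 4.03 ± 0.30 in 2D, and fell in 3D WT (-1.05 ± 0.31). IL36G, an epithelial IL1 relative, rose in 3D dSRF by 3.84 ± 0.60 and in 2D stood at 5.05 ± 0.382 TPM in dSRF (mean ± SD, n = 3). It was listed at 0 in all 2D Control libraries. IRAK2, a kinase downstream of the IL1 receptor, fell in 3D WT (-0.79 ± 0.15) and 2D WT (-0.78 ± 0.16) and rose in 2D dSRF (0.83 ± 0.15).

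The 14 NF-kB subunits and feedback genes, many of them induced by NF-kB itself, fell more often than they rose in WT and dSAP. Over Control there were 1 higher and 5 lower (median -0.06) in 3D WT, 1 higher and 5 lower (median -0.25) in 3D dSAP, 1 higher and 7 lower (median -0.21) in 2D WT and 1 higher and 7 lower (median -0.27) in 2D dSAP. In dSRF there were 7 higher and 5 lower (median 0.16) in 3D and 8 higher and 4 lower (median 0.34) in 2D. Of all tested genes, 18.0% were called higher and 17.0% lower in 3D WT, and 16.5% and 13.1% in 3D dSAP. The shares were 20.1% and 19.2% in 2D WT, 17.5% and 15.4% in 2D dSAP, 35.1% and 31.3% in 3D dSRF and 34.5% and 31.5% in 2D dSRF. NFKBIA, the inhibitor that NF-kB induces, fell, with -0.58 ± 0.11 in 3D WT, -0.61 ± 0.11 in 3D dSAP, -0.76 ± 0.12 in 2D WT and -0.59 ± 0.12 in 2D dSAP. NFKB1 fell in the same groups, with -0.31 ± 0.05 in 3D WT, -0.32 ± 0.05 in 3D dSAP, -0.37 ± 0.05 in 2D WT and -0.29 ± 0.05 in 2D dSAP, and rose in 2D dSRF by 0.77 ± 0.05. RELA, which encodes the subunit p65, rose in 3D WT (0.37 ± 0.04) and 3D dSAP (0.18 ± 0.04), and TNFAIP3, a feedback inhibitor, rose in 2D WT (1.92 ± 0.32). In 3D over 2D the list had 9 higher and 2 lower (median 0.30) in Control, 8 higher and 2 lower (median 0.44) in WT, 9 higher and 1 lower (median 0.37) in dSAP and 0 higher and 2 lower (median 0.03) in dSRF. Of all tested genes, 23.0% were higher and 24.4% lower there in Control, 24.4% and 25.7% in WT, 24.2% and 23.5% in dSAP and 7.19% and 9.84% in dSRF.

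Other factors near these genes moved in both directions. The 11 AP-1 and C/EBP factors had 1 higher and 3 lower (median -0.20) in 3D WT, 1 higher and 2 lower (median -0.24) in 3D dSAP, 5 higher and 2 lower (median -0.06) in 3D dSRF, 4 higher and 1 lower (median 0.30) in 2D WT, 3 higher and 1 lower (median -0.02) in 2D dSAP and 5 higher and 3 lower (median -0.20) in 2D dSRF. ATF3, a stress-induced factor, rose in all 6 comparisons, by 0.69 ± 0.11 in 3D WT, 0.59 ± 0.11 in 3D dSAP, 2.69 ± 0.11 in 3D dSRF, 1.81 ± 0.10 in 2D WT, 1.08 ± 0.10 in 2D dSAP and 1.63 ± 0.10 in 2D dSRF. CEBPD, a C/EBP factor induced by IL6 and IL1, fell, with -0.69 ± 0.24 in 3D WT, -0.81 ± 0.25 in 3D dSAP, -1.26 ± 0.25 in 3D dSRF, -1.57 ± 0.25 in 2D WT and -0.91 ± 0.24 in 2D dSAP. The 8 AU-rich RNA decay factors had 1 higher and 1 lower (median 0.01) in 3D WT, 1 higher and 2 lower (median -0.07) in 3D dSAP, 3 higher and 5 lower (median -0.27) in 3D dSRF, 3 higher and 2 lower (median -0.05) in 2D WT, 0 higher and 2 lower (median -0.13) in 2D dSAP and 2 higher and 4 lower (median -0.26) in 2D dSRF. Beside both lists, 18.0%, 16.5%, 35.1%, 20.1%, 17.5% and 34.5% of all tested genes were called higher in the same order. Called lower were 17.0%, 13.1%, 31.3%, 19.2%, 15.4% and 31.5%. ZFP36, which binds AU-rich elements and triggers decay, rose in 3D WT (0.49 ± 0.12), 3D dSAP (0.56 ± 0.12), 3D dSRF (0.73 ± 0.12), 2D WT (0.63 ± 0.12) and 2D dSRF (0.72 ± 0.12).

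Among 7 tested other chemokines there were 4 higher and 1 lower (median 0.76) in 3D WT, 2 higher and 2 lower (median 0.22) in 3D dSAP, 3 higher and 3 lower (median 0.55) in 3D dSRF, 3 higher and 2 lower (median 0.08) in 2D WT, 2 higher and 1 lower (median 0.01) in 2D dSAP and 4 higher and 1 lower (median 1.93) in 2D dSRF. CX3CL1, the membrane-bound attractant of monocytes and lymphocytes, fell in all 6, with -1.84 ± 0.19 in 3D WT, -1.24 ± 0.18 in 3D dSAP, -3.76 ± 0.21 in 3D dSRF, -1.95 ± 0.21 in 2D WT, -1.46 ± 0.20 in 2D dSAP and -3.08 ± 0.23 in 2D dSRF. CXCL11, a ligand of CXCR3, which T cells carry, rose in WT (2.12 ± 0.27 in 3D, 3.63 ± 0.35 in 2D) and dSAP (2.43 ± 0.27 in 3D, 3.66 ± 0.35 in 2D), fell in 3D dSRF (-1.54 ± 0.30) and rose in 2D dSRF (1.93 ± 0.38). CXCL16 rose in dSRF by 3.15 ± 0.13 in 3D and 3.38 ± 0.14 in 2D. The 11 tested other secreted inflammatory products had 3 higher and 2 lower (median -0.03) in 3D WT, 1 higher and 2 lower (median -0.12) in 3D dSAP, 7 higher and 1 lower (median 1.11) in 3D dSRF, 4 higher and 3 lower (median -0.54) in 2D WT, 1 higher and 3 lower (median -0.03) in 2D dSAP and 5 higher and 4 lower (median 0.42) in 2D dSRF. Beside these and the other chemokines, 18.0%, 16.5%, 35.1%, 20.1%, 17.5% and 34.5% of all tested genes were called higher in the same order. Called lower were 17.0%, 13.1%, 31.3%, 19.2%, 15.4% and 31.5%. PLAU, the urokinase protease, rose in dSRF by 3.59 ± 0.12 in 3D and 1.74 ± 0.11 in 2D, and SAA2, an acute-phase protein gene induced by IL6 and IL1, fell in 2D WT (-1.87 ± 0.30) and 2D dSAP (-1.82 ± 0.30). The SAA2 values are uncertain because SAA1 is near-identical.

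Left without the library 3D dSRF 1, the 3D dSRF line had 3 higher and 2 lower (median 1.51) in the CSF list, 9 higher and 3 lower (median 0.74) in the IL6 family, 6 higher and 3 lower (median 0.81) in the IL1 family and 7 higher and 5 lower (median 0.09) among the NF-kB genes. It had 5 higher and 5 lower (median -0.21) among the AP-1 and C/EBP factors, 3 higher and 5 lower (median -0.39) among the decay factors, 3 higher and 4 lower (median -1.64) among the other chemokines and 7 higher and 3 lower (median 0.89) among the other secreted products, when 37.2% of all genes were called higher and 35.6% lower. Each of the 13 pathway list genes given above as risen or fallen in 3D dSRF was called in the same direction in that fit, among them IL1RN at 4.21 ± 0.23 (adjusted p = 6.85e-15), CSF2RA at 1.51 ± 0.06 (adjusted p = 2.02e-18), CX3CL1 at -3.94 ± 0.22 (adjusted p = 1.55e-13) and CEBPD at -1.30 ± 0.31 (adjusted p = 0.00109).

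Across the 8 group means of log2 CPM, which share lines and libraries, the likeness of the members is given as Pearson's r, as a description over 8 points. CSF3 correlated with CXCL1 and CXCL2 at 0.93 and with CXCL3 at 0.90, and CXCL2 with CXCL3 at 0.93. LIF correlated with CXCL8 at -0.77 and with IL1B at 0.74, and IL6 with CSF2 at 0.83. All these values between members leave out the library 3D dSRF 1. With all libraries, the genes closest in pattern to single members were KRT19 for LIF (0.989), PDZK1IP1 for IL1B (0.993), RBM12B for CXCL1 (0.993) and WSB1 for CXCL8 (0.984). All of these changed without the library 3D dSRF 1, to DSP for LIF (0.99), ZC3H3 for IL1B (0.977), PTPRU for CXCL1 (0.966) and FP565260.3 for CXCL8 (0.984). For the mean pattern of all members the closest genes were UBAC2 (0.958) and RNASET2 (0.957) with all libraries, and DNAJC19 (0.957) once the library 3D dSRF 1 was left out.

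LIF had the lowest density of AU-rich pentamers in its 3′ end. Counted in the annotated 3′ untranslated regions of GENCODE 29, the pentamer ATTTA of AU-rich elements occurred 8 times in the 318 bases of CSF2, or 25.2 per kb, and 0.023% of 13062 genes had as high a density. IL6 had 14.0 per kb, CXCL2 13.9, CXCL3 10.4, IL1B 9.84, CSF3 8.20, CXCL8 7.19, CXCL1 7.08 and IL1A 4.34. LIF had 2.18 per kb, a density that 40.3% of genes reached, against a median of 1.67 per kb over genes. Each member held at least 3 copies of the longer TATTTAT, a number that 6.95% of genes reached, and 35.6% of genes held at least 1. LIF held 5 copies in its 3204 bases, which 1.62% of genes reached. These counts describe sequence and were not tested against the expression values.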

How the data were processed

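Ribosomal RNA was depleted from total RNA before library preparation, according to the labels' protocols, while the molecule given for each sample is polyA RNA. Salmon (version written as 11.3) quantified the reads on hg38 and FastQC checked them, per the submitters' processing notes, and the annotation behind the gene ids was not stated. The authors deposited estimated (expected) counts and TPM per gene. Depth was 13968829 to 23023415 counts a library, which limits CSF3 most.

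The deposited expected counts were rounded and fitted with edgeR 4.0.16 in R 4.3.3 (TMM factors 0.89 to 1.09, filterByExpr, 1 robust quasi-likelihood model with 8 groups). Calls were made at an adjusted p (Benjamini-Hochberg, over 14986 genes) under 0.05. The common biological coefficient of variation was 13.1%, and 6.64% over the 15246 genes tested without the library 3D dSRF 1. In all, 17 comparisons were made. Symbols and positions came from GENCODE 29 and promoters from RefSeq. The fit was tested on simulated data. The members and lists were chosen with earlier results of these data known. All 10 members were tested in every comparison, though the text does not give every value of each. Of each list, up to 4 tested genes with the lowest p could be named. Of genes alike in pattern, those with the highest Pearson r and a mean of at least 5 CPM could be named. Other settings tried were size factors by RLE, the fit with no filter, DESeq2 1.42.0, limma 3.58.1 on log2(TPM + 1) and log2(TPM + 0.1), a replicate block, only the libraries compared, and each library left out. Figures used Python with matplotlib.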

Additional observations from a re-analysis of the deposited data

Results flagged for a closer look

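For 2 members the effect of the dSRF form over Control differed between the cultures by a test of the difference itself (edgeR's quasi-likelihood test, adjusted over all genes). For CXCL3 the effect in 3D minus that in 2D was -1.49 ± 0.51 (adjusted p = 0.0353), or -2.55 ± 0.26 (adjusted p = 8.43e-09) without the library 3D dSRF 1, from -1.53 ± 0.36 in 3D and -0.04 ± 0.37 in 2D. The CXCL3 call with all libraries was lost in 9 of 24 fits without 1 library. It was also lost with no filter (adjusted p = 0.0622) and with only the libraries compared (adjusted p = 0.164). CXCL3 shares near-identical coding sequence with CXCL1 and CXCL2. For LIF the effect in 3D minus that in 2D was 0.95 ± 0.11 (adjusted p = 1.7e-06), or 1.01 ± 0.10 (adjusted p = 4.14e-09) without the library 3D dSRF 1. The LIF effect was 2.71 ± 0.08 in 3D and 1.76 ± 0.08 in 2D, and all 6 dSRF libraries were above all Control libraries.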

How the results depend on the processing

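The library 3D dSRF 1 decides much of what is called. Leaving out each library in turn, the members called ranged from 4 to 10 for 3D over 2D in Control, 3 to 8 in WT, 4 to 9 in dSAP and 0 to 9 in dSRF, from 4 to 9 for 3D WT over Control, 3 to 8 for 3D dSAP, 6 to 8 for 3D dSRF, 2 to 8 for 2D WT, 4 to 7 for 2D dSAP and 3 to 6 for 2D dSRF. Against WT they ranged from 1 to 6 for 3D dSAP, 6 to 8 for 3D dSRF, 1 to 8 for 2D dSAP and 3 to 9 for 2D dSRF, and for the culture differences from 0 to 7 in WT, 0 to 4 in dSAP and 1 to 8 in dSRF. With no filter on low counts, 4 members were called for 3D dSAP over Control, 3 for 2D dSRF over WT and 1 for the dSRF culture difference. DESeq2 called 5 for 2D WT over Control and 1 for the WT culture difference. Log2(TPM + 1) gave 5 and log2(TPM + 0.1) 5 for 2D WT over Control, and log2(TPM + 1) 4 for the dSRF culture difference. With only the libraries compared in the fit, the calls over Control were 9 for 3D WT, 2 for 3D dSRF and 8 for 2D WT, those over WT 5 for 3D dSAP, 1 for 3D dSRF, 7 for 2D dSAP and 9 for 2D dSRF, those of 3D over 2D 8 in WT and 0 in dSRF, and those of the culture differences 7 in WT, 3 in dSAP and 1 in dSRF; DESeq2 and edgeR called 1 each for 3D over 2D in dSRF with all libraries.

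Some log2 fold changes changed sign, and the cause was not tested. With 1 library left out in turn they ran over Control from -0.45 to 1.54 for IL6 in 3D dSRF, -0.14 to 0.012 for IL1A in 3D dSAP, -0.26 to 0.10 for IL1B in 2D WT, -0.020 to 0.15 for LIF in 2D dSAP and -0.12 to 0.093 for CXCL3 in 2D dSRF, for 3D dSRF over WT from -0.066 to 1.01 for CXCL1, -0.48 to 1.49 for CXCL2, -0.77 to 0.67 for CXCL3 and -2.29 to 0.22 for CXCL8, for 3D over 2D in dSRF from -1.04 to 0.35 for IL1A, -1.10 to 0.87 for CXCL2, -0.92 to 0.51 for CXCL3, -0.75 to 0.55 for IL1B, -0.60 to 0.47 for CXCL1, -0.78 to 1.74 for CXCL8, -0.44 to 1.55 for IL6, -0.50 to 1.02 for CSF3 and -1.64 to 0.32 for CSF2 and in WT from -0.0019 to 0.79 for CSF3. For the culture differences they ran from -0.10 to 0.075 for LIF in WT, from -0.15 to 0.078 for CXCL3 and -0.52 to 0.15 for CSF3 in dSAP and from -1.68 to 0.84 for CXCL8, -1.25 to 0.74 for IL6 and -0.087 to 1.304 for IL1A in dSRF. The sign changes of 3D dSRF came without the library 3D dSRF 1, except CXCL8 over WT and CSF2 over 2D (without 3D dSRF 2 or 3), and IL1A over 2D also turned without 2D dSRF 1. On log2(TPM + 1) and log2(TPM + 0.1), 2D dSRF over Control was 0.029 and 0.030 for CXCL1 and 0.044 and 0.049 for CXCL3. On the same scales 3D over 2D in dSRF was -0.067 and -0.081 for CXCL2, -0.091 and -0.13 for CXCL3, -0.31 and -0.32 for IL1A and -0.045 and -0.050 for IL1B, and the dSRF culture difference -0.61 and -0.62 for CXCL8 and -0.39 and -0.40 for IL6. For IL1A in 3D over 2D dSRF DESeq2 gave -0.0021 and the replicate block -0.073. The TPM scales moved the median of all genes to between -0.108 for 2D WT over Control and 0.211 for 2D dSRF over WT on log2(TPM + 0.1), and with it the split of all calls: 2D WT over Control had 1980 higher and 3252 lower on log2(TPM + 1), against 3012 and 2879 by edgeR, and 2D dSAP over WT 1404 and 455, against 763 and 1156. In all, 1029 log2 fold changes of members under other settings and 3841 with a library left out kept their direction and side of the threshold.

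The replicate numbers of the titles did not pair the libraries: deviations of same-numbered libraries correlated at -0.131 to 0.108, and in 0 of 14 comparisons did every library correlate best with its own number. With a replicate block, 5 members were called for 3D WT over Control, 5 for 3D dSAP, 7 for 3D dSRF, 3 for 2D WT, 4 for 2D dSAP and 3 for 2D dSRF. Depth limits CSF3, at 5 to 237 counts a library.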
